A study of Caenorhabditis elegans with 2 samples.

Results

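CDC-48 and its cofactor genes were defined as 9 named protein-coding genes, chosen by the measured signal of the cdc-48.1 promoter peak, out of 19973 nuclear protein-coding genes. They encode the AAA ATPase itself (cdc-48.1 and cdc-48.2), its UFD-1 and NPL-4 cofactors (ufd-1, npl-4.1 and npl-4.2), UBX-domain cofactors (ubxn-1, ubxn-2 and ubxn-3) and the ubiquitin chain ligase UFD-2 (ufd-2). The data were ChIP-seq peak lists for RCOR-1, a CoREST-family corepressor, in 2 biological replicates of whole young adult Caenorhabditis elegans, 65 hours old and synchronised by starvation at the first larval stage after bleaching. Both came from strain RW12222, whose allele st12222[rcor-1::TY1::EGFP::3xFLAG] was made by CRISPR insertion at the rcor-1 gene, so all the worms carried the tag and there was no untagged group. An antibody to GFP was used, and because whole animals were taken, the tissue in which a site was occupied cannot be read from the lists.

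CDC-48, called p97 or VCP in mammals, is an ATPase that pulls ubiquitin-tagged proteins out of membranes, chromatin and larger complexes and unfolds them, often for delivery to the proteasome. Cofactors give it its targets: the UFD-1 and NPL-4 pair binds ubiquitin chains, UBX-domain proteins dock on the ATPase, and UFD-2 lengthens ubiquitin chains. In the worm, CDC-48.1 and CDC-48.2 are known to act redundantly, and CDC-48 with UFD-1 and NPL-4 is known for its part in DNA replication in early embryos.

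RCOR-1::eGFP summits passed the threshold upstream of 5 of the 9 genes, namely cdc-48.1, cdc-48.2, ubxn-2, ubxn-3 and ufd-2. The count used the conservative list, made by the authors between both replicates at an irreproducible discovery rate (IDR, low where a region's rank repeats between the lists compared) of 0.01 or less, and a window from 1000 bp upstream of the annotated 5' end to the end of the gene. By the same rule 2045 of the 19973 genes, 10.2%, had a summit. Because the genes were picked for one of these peaks, the 5 of 9 is a description and no test was made. All 5 summits were intergenic and upstream, between -738 and -157 bp from the 5' end. Over all genes with a summit, the strongest one was upstream in 70.8%. The windows of the 9 genes had a median length of 3735 bp, against 3027 bp over all genes. Of the remaining genes, ufd-1 and ubxn-1 had only candidate regions, that is, regions of the ranked list that did not pass, and npl-4.1 and npl-4.2 had none in the list made between replicates. In all, 7 of the 9 genes had a candidate region or peak in that ranked list, against 64.7% of all genes.

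The DNA around the 5 summits is shown here. The signal values below belong to the called regions, which were wider, at 222 bp for cdc-48.1 and 280 bp for the other genes. Each sequence holds the summit base and the 100 bp on either side of it, on the strand of the gene and written 5' to 3', from the RefSeq genome sequence of assembly WBcel235, the same build as ce11. The windows lie at chrII:10563464-10563664 (minus strand) for cdc-48.1, chrII:8138204-8138404 (plus strand) for cdc-48.2, chrIV:2725879-2726079 (minus strand) for ubxn-2, chrII:221305-221505 (minus strand) for ubxn-3 and chrII:8062386-8062586 (plus strand) for ufd-2. Capitals mark every match, on either strand, to 9 short words that were searched.
cdc-48.1: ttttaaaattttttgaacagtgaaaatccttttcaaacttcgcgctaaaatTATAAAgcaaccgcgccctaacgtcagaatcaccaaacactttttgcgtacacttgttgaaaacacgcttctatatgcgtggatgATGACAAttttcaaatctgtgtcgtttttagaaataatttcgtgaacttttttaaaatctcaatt
cdc-48.2: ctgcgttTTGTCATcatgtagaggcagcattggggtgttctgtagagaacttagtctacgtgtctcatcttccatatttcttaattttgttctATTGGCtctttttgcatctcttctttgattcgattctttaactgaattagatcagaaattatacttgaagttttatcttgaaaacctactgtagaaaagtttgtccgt
ubxn-2: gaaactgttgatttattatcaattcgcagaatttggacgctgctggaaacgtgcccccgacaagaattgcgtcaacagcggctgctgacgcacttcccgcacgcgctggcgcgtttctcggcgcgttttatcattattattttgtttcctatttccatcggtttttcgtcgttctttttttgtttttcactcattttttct
ubxn-3: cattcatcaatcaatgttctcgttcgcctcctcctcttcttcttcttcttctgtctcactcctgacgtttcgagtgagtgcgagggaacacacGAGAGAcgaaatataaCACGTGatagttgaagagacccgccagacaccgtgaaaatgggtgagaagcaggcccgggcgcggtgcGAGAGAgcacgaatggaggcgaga
ufd-2: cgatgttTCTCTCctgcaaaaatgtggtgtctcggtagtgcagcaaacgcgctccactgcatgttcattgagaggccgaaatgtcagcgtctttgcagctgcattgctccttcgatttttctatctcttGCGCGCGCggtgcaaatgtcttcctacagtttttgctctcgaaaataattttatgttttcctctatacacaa

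The words differed between the genes, and none was present at all 5 summits. No match overlapped that of another word, and the only overlap was between the pair of GCGCGC matches of ufd-2. The cdc-48.1 window held TATAAA, which starts 49 bp upstream of the summit and was found in 13.7% of all 2324 nuclear peaks and in 14.9% of 42606 weaker candidate regions. Both ATPase genes held TTGTCAT, present in 3.14% of peaks and 3.80% of weaker regions, on the gene's strand at cdc-48.2 and on the opposite strand at cdc-48.1. The ubxn-3 and ufd-2 windows held GAGAGA, present in 29.3% of peaks and 14.6% of weaker regions. The ufd-2 window also held GCGCGC (12.6% of peaks, 2.37% of weaker regions), the ubxn-3 window CACGTG (5.51% and 4.90%) and the cdc-48.2 window ATTGGC (9.21% and 9.54%). The ubxn-2 window held none of the 9 words. CTGCGTCT (9.25% of peaks, 2.43% of weaker regions), GGTTCGA (10.9% and 1.99%) and CCGGAAG (1.25% and 1.86%) were in none of the 5 windows. These are matches of letters and do not mark a bound site.

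Base composition also differed. The cdc-48.1 window had 32.3% GC and the cdc-48.2 window 34.8%, at the 5.98th and 13.4th percentiles of the nuclear peaks, whose median was 43.3%. The ubxn-2 and ufd-2 windows were close to that median, with 44.3% and 45.3%. The ubxn-3 window was the most GC-rich of the 5, with 52.7%, at the 89.4th percentile. With 200 bp on either side of the summit, the median of the nuclear peaks was 38.9%. The cdc-48.1 window then had 32.4% GC, at the 11.0th percentile, and the cdc-48.2 window 36.7%, at the 35.9th. The ubxn-3 window was still the most GC-rich, with 47.4%. The low place of cdc-48.2 therefore depended on the size of the window.

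**Figure D1:**
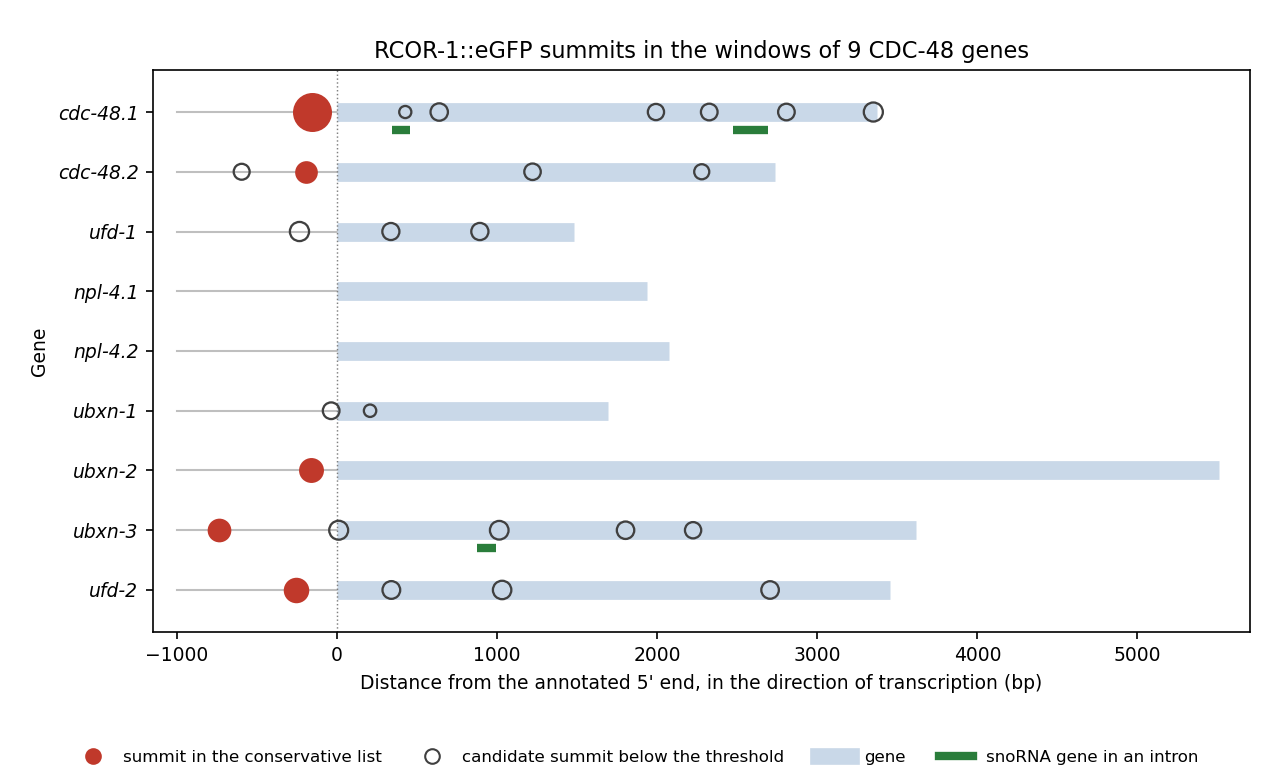
Summits in the list made between both replicates, for each of the 9 genes, placed by distance in bp from the annotated 5' end; circle area grows with the square root of the deposited signal, filled circles are in the conservative list, open circles are candidate regions below the threshold, pale bars are the genes and green bars are snoRNA genes in their introns. The filled circles lie upstream of the 5' end, from -157 bp at cdc-48.1 to -738 bp at ubxn-3, and npl-4.1 and npl-4.2 have no circle.

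The ATPase gene cdc-48.1 (WBGene00007352, chromosome II, 10560036 to 10563407, minus strand) had a far stronger peak than any other of the 9 genes. The signal values here and below are the authors' own measure of peak strength, on a scale no source here states, and are compared only within a list. The cdc-48.1 signal was 278 in replicate 1, 395 in replicate 2 and 669 in the conservative list. It ranked 7th of 1530 nuclear peaks in the list of replicate 1, 2nd of 1457 in that of replicate 2 and 3rd of 2324 in the conservative list, where it was the strongest of 350 peaks on chromosome II. The rank was high in both replicates. The IDR was 1.0e-05, the smallest in the lists, in each replicate's own ranked list and between replicates. Weaker peaks shared this value, among them those of ubc-6 and dvc-1, described below. The summit lay at -160 bp from the 5' end in replicate 1, at -158 bp in replicate 2 and at -157 bp in the conservative list.

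The region called at cdc-48.1 was 222 bp wide (10563448 to 10563669), while the regions of the other 4 genes were each 280 bp wide. Of all nuclear conservative peaks 13.9% were narrower than 280 bp. The intergenic stretch between cdc-48.1 and its upstream neighbour C06A1.6, on the same strand, is 704 bp long. No protein-coding gene other than cdc-48.1 had its 5' end within 1000 bp of the summit.

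Only peaks within 500 bp of a protein-coding transcript start were compared with that of cdc-48.1 by replicate signal. The closest were at rpl-20 and Y17G9B.5 (278 in replicate 1 and 380 in replicate 2), tasp-1 (295 and 384) and rpl-35 (260 and 384). Their Euclidean distances from cdc-48.1 in log2 signal over the 2 samples were 0.06, 0.10 and 0.10. The genes rpl-20 and rpl-35 encode ribosomal proteins of the large subunit, and tasp-1 a taspase homologue. Such a likeness over 2 samples says only that the peaks are of similar strength.

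The cdc-48.1 gene body carried only weak regions. The list made between replicates held 6 regions inside the gene, with signals of 8.01 to 48.6, against 669 upstream. The strongest, in the 3' UTR at +3350 bp, had an IDR of 0.0760 between replicates and did not pass. In the other thresholded list of the series, which the authors also made from both replicates, this region was included (IDR 0.00397, signal 48.6). It had a signal of 32.9 and an IDR of 0.0202 in replicate 2, and the nearest region of replicate 1 had its summit at +3167 bp, with a signal of 18.0. Its status therefore depended on the list, unlike that of the promoter peak.

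The second ATPase gene, cdc-48.2 (WBGene00008053, chromosome II, 8138496 to 8141230, plus strand), had a peak near the lower end of the list. The signal was 30.5 in replicate 1, 36.1 in replicate 2 and 63.8 in the conservative list, where it ranked 1949th of 2324. The cdc-48.1 signal was the higher in the conservative list and in both replicates. The summit lay at -196 bp in replicate 1, -95 bp in replicate 2 and -192 bp between replicates. The IDR was 0.00314 between replicates but 0.0428 in replicate 1 and 0.0310 in replicate 2, so the peak was in neither replicate's own list. Among the 5 genes with a peak this one was nearest to the threshold. The coding sequences of both ATPase genes were identical at 76.3% of 2417 aligned bases. Their windows shared under 1% of words of 31 bases (0.160% of the words of cdc-48.1 and 0.187% of those of cdc-48.2), and neither summit window held a repeated word of that length.

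The UFD-1 and NPL-4 genes had no peak in any of the 4 thresholded lists. At ufd-1 (WBGene00006733, chromosome IV, 12329408 to 12330890, minus strand), which encodes the partner of NPL-4 in binding ubiquitin chains, the strongest region reached 21.7 in replicate 1, 32.7 in replicate 2 and 49.7 between replicates. Its IDR of 0.0204 between replicates placed it nearest to the threshold on the outside, as cdc-48.2 was on the inside. The summit was at -235 bp, but this base lies in the 3' UTR of F19B6.1, a gene on the same strand that ends 85 bp upstream of ufd-1. In the replicates the nearest summits were at -220 and -276 bp, also in that 3' UTR, with IDRs of 0.326 and 0.705. Inside the coding sequence, a region at +892 bp had a signal of 32.1 and an IDR of 0.505, and one at +336 bp a signal of 31.4 and an IDR of 0.701.

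The NPL-4 genes npl-4.1 and npl-4.2 are near-identical copies on chromosome II (5631351 to 5633284 and 5622889 to 5624959, both on the plus strand). No region fell in the window of either gene in either series list or in replicate 2. Replicate 1 gave a single weak region at npl-4.1, at -5 bp with a signal of 11.5 and an IDR of 0.874, and none at npl-4.2. The coding sequences were identical at 1579 of 1587 bases, 99.5%. Of the words of 31 bases in the npl-4.1 window, 90.8% also occur in the window of npl-4.2, and repeated words made up 90.8% and 88.3% of the windows of npl-4.1 and npl-4.2, against a median of 0.468% over all genes. Of the 284 genes with at least 80% repeated words, 16 (5.63%) had a region in the ranked list, against 64.7% of all genes. No source used here says whether reads that map to several places were kept, and the part of these repeats in the lack of regions at the NPL-4 genes was not tested.

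Among the UBX-domain genes, ubxn-2 and ubxn-3 had a peak and ubxn-1 did not. The gene ubxn-2 (WBGene00022381, chromosome IV, 2720313 to 2725819, minus strand) encodes the homologue of the p97 adaptor p47. Its signal was 46.0 in replicate 1, 46.7 in replicate 2 and 96.8 in the conservative list, where it ranked 1018th of 2324, close to the median nuclear signal of 90.2. The IDR between replicates was 0.000318. The summit was at -159 bp in replicate 1, -164 bp in replicate 2 and -160 bp between replicates. The peak was in the list of replicate 1 (IDR 0.000635) and missed that of replicate 2 (IDR 0.0130). It was the only region in the ubxn-2 window in the list made between replicates. Each replicate's ranked list and the other ranked list of the series held 3 regions there, 2 of them inside the gene. That window, at 6507 bp, is the longest of the 9, and 15.6% of its words of 31 bases are repeated. The summit window itself held no repeated word.

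The gene ubxn-3 (WBGene00018586, chromosome II, 217049 to 220667, minus strand), homologue of the human p97 cofactor gene FAF1, had its peak farther out. The summit lay at -734 bp in replicate 1 and at -738 bp in both replicate 2 and the conservative list, in the intergenic stretch of 2032 bp before Y43H11AL.1. The signal was 41.3 in replicate 1, 41.2 in replicate 2 and 77.5 in the conservative list, at rank 1479 of 2324, with an IDR of 0.000727 between replicates. As at ubxn-2, the peak was in the list of replicate 1 (IDR 0.00369) and missed that of replicate 2 (IDR 0.0179). A second, weaker region lay at the 5' end itself, in the 5' UTR at +10 bp, with a signal of 47.5 and an IDR of 0.0290 between replicates. That region had signals of 25.7 in replicate 1 and 26.5 in replicate 2, with summits at -24 and +27 bp, and was in none of the thresholded lists. The only peak of ubxn-3 was the one away from the annotated start.

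The gene ubxn-1 (WBGene00017733, chromosome I, 2434002 to 2435691, plus strand), homologue of the human UBX protein SAKS1, had only weak regions. The strongest lay at -37 bp with a signal of 28.4, at the 59.3rd percentile of all candidate regions, and an IDR of 0.407 between replicates. Replicate 1 gave a signal of 16.3 at +37 bp and replicate 2 gave no region in the window. The upstream neighbour tipn-1 is transcribed in the opposite direction, and 386 bp lie between the genes.

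The gene ufd-2 (WBGene00006734, chromosome II, 8062741 to 8066193, plus strand) had the second strongest peak of the 9 genes. UFD-2 is a ubiquitin ligase that extends chains begun by other ligases, known in the worm for its work with CHN-1 on the myosin chaperone UNC-45. Its signal was 52.6 in replicate 1, 46.8 in replicate 2 and 107 in the conservative list, where it ranked 840th of 2324. The summit lay at -255 bp in replicate 1, -265 bp in replicate 2 and -255 bp between replicates, in the 987 bp between ufd-2 and T05H10.8. The IDR was 0.000201 between replicates, 0.0113 in replicate 1 and 0.0676 in replicate 2, so the peak was in neither replicate's own list. Inside the gene 3 weaker regions had signals of 35.0 to 42.6 and IDRs of 0.437 or more between replicates.

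The replicates differed in how many of the genes had a peak. The list of replicate 1 gave cdc-48.1, ubxn-2 and ubxn-3, 3 of 9 genes, against 7.44% of all genes. The list of replicate 2 gave cdc-48.1 alone, 1 of 9 genes, against 6.99% of all genes. The genes were picked for the cdc-48.1 peak, so its place in each count was fixed in advance. No other member was called in replicate 2. The other list of the series gave the same 5 genes as the conservative list, against 10.5% of all genes. Among all candidate regions of a replicate's own ranked list, the cdc-48.2 peak stood at the 94.2nd percentile of signal in replicate 1 and the 92.2nd in replicate 2. The percentiles were 97.4 and 95.5 for ubxn-2 and 96.7 and 94.2 for ubxn-3. The ufd-2 peak stood above these in replicate 1 and at the 95.5th percentile in replicate 2. These 4 peaks were each at a lower percentile in replicate 2 than in replicate 1, while cdc-48.1 was near the top of both lists.

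**Figure D2:**
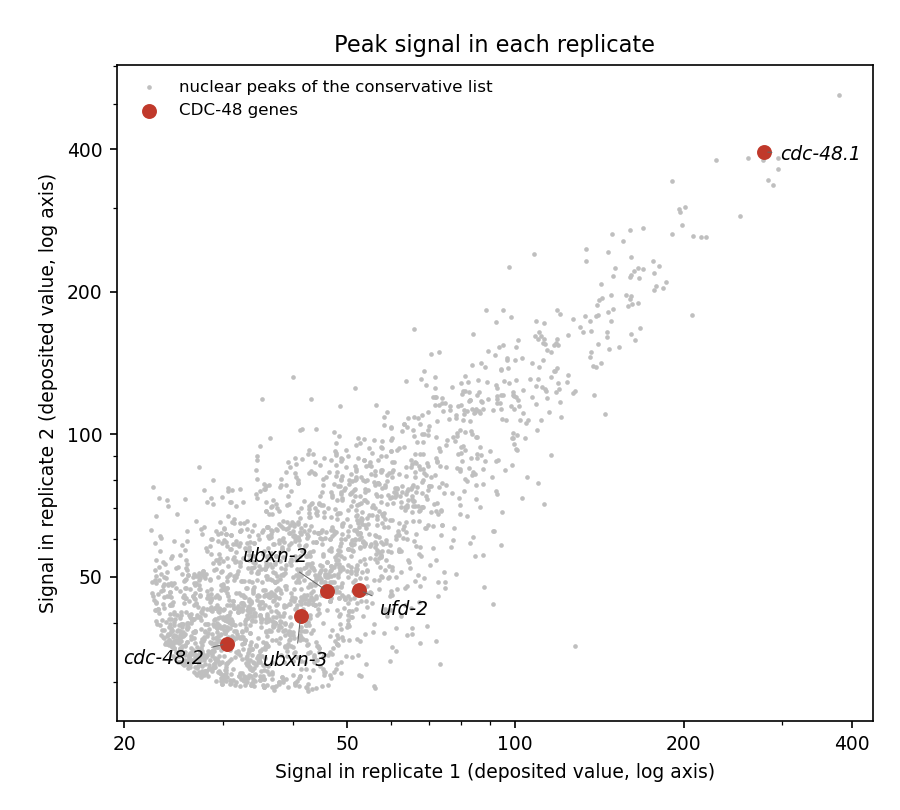
Deposited peak signal in replicate 1 (x axis) and replicate 2 (y axis), both on log axes, for the nuclear peaks of the conservative list with a region in both replicates (grey) and for the 5 CDC-48 genes with a peak (red). The cdc-48.1 peak, at 278 and 395, is among the strongest of the list, and the other 4 genes lie between 30.5 and 52.6 in replicate 1 and between 36.1 and 46.8 in replicate 2, among the bulk of the peaks.

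The choice of window and strength also set the count. Each count again includes cdc-48.1, for whose peak the genes were picked. Within 500 bp of any annotated transcript start 4 of 9 genes had a peak, since the ubxn-3 summit is farther out, against 7.05% of all genes. From 1000 bp upstream to 100 bp downstream the count was 5 (7.78% of all genes), from 2000 bp upstream to the gene end it was 5 (12.5%), and with any overlap of the region in place of the summit it was 5 (11.1%). With peaks above the median signal of the conservative list, 3 of 9 genes were left (cdc-48.1, ubxn-2 and ufd-2), against 5.77% of all genes. The median signal of the 5 genes was 96.8, with a lowest value of 63.8, and over all 2045 genes with a peak it was 97.3.

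Introns of cdc-48.1 and ubxn-3 hold snoRNA genes, which encode small RNAs that guide the modification of other RNAs. C06A1.9 (II, 10562952 to 10563064) and C06A1.8 (II, 10560717 to 10560934) lie in introns of cdc-48.1 on the same strand, and F48A11.7 (II, 219675 to 219791) in an intron of ubxn-3, also on the same strand. The cdc-48.1 promoter summit was 500 bp from the 5' end of C06A1.9, and at the snoRNA gene itself the list made between replicates held only a region with a signal of 8.01 and an IDR of 0.838. Replicate 1 had a region with its summit 12 bp from C06A1.9 (signal 13.3, IDR 0.667), and in replicate 2 no summit was nearer than the promoter summit, 501 bp away. In the list made between replicates the nearest summit to C06A1.8 was 117 bp away, with a signal of 28.1. The nearest in replicate 1 was 35 bp away (signal 18.8, IDR 0.435) and in replicate 2 117 bp away (signal 23.1, IDR 0.741). At F48A11.7 the nearest summit between replicates was 21 bp away, with a signal of 44.5 and an IDR of 0.691. In replicate 1 the nearest was 25 bp away (signal 23.3) and in replicate 2 it was 41 bp away (signal 13.3). None of these regions passed. Further snoRNA genes lay outside the member genes: R166.10 was 4664 bp from cdc-48.1 and C41C4.17 was 5465 bp from cdc-48.2, with nearest summits of signal 36.8 and 36.4 between replicates that did not pass either. Of 346 nuclear snoRNA genes, 117 (33.8%) had a summit of the conservative list within 500 bp of the gene. No share by this rule is given for other genes, so the value is not a comparison. C06A1.9 is counted among the 117 through the promoter summit of cdc-48.1, which lies at the limit of 500 bp.

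Other genes of the CDC-48 pathway were taken as a list of 26, of which 7 had a peak in the conservative list (26.9%, against 10.2% of all genes). This list too was chosen with earlier results of these data known, so the share is a description and no test was made. In the ranked list made between replicates, 24 of the 26 genes (92.3%) had a candidate region or peak, against 64.7% of all genes. The strongest summit of each of the 7 genes was upstream, between -519 and -102 bp from the 5' end, and math-33 had 2 summits in its window. The strongest was that of ubc-6, an E2 enzyme gene named after the yeast enzyme of the endoplasmic reticulum, which reached 103 in replicate 1, 124 in replicate 2 and 232 in the conservative list. It was followed by dvc-1, whose human homologue SPRTN is a p97-binding protease for proteins crosslinked to DNA, with a conservative signal of 194 (85.1 and 113 in the replicates, in that order here and below). Both were well above the 4 weaker CDC-48 genes and below cdc-48.1 in each replicate. The deubiquitylase gene math-33 had 122 (38.9 and 83.3) and the E2 gene ubc-7 had 116 (66.3 and 49.1). The ubiquilin gene ubql-1 had 93.3 (48.9 and 47.5). The gene ufd-3, homologue of the p97 cofactor gene PLAA, had 107 (59.9 and 46.0). The gene rnf-121, a ubiquitin ligase gene of the endoplasmic reticulum, had 97.3 (46.5 and 48.8). Both ufd-3 and rnf-121 were in the list of replicate 1 but not in that of replicate 2.

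The remaining 19 genes of this list had no peak. Those nearest in signal were chn-1, the CHIP homologue that works with UFD-2, with a region at -89 bp (signal 61.0), ubxn-6 at +106 bp (53.3) and the deubiquitylase gene usp-14 at -126 bp (49.9). The other UBX-domain genes ubxn-4 and ubxn-5 had weaker regions still, with a signal of 29.7 at ubxn-4 and less at ubxn-5. Of the genes for degradation at the endoplasmic reticulum, sel-1, sel-11, hrdl-1, marc-6, cup-2 and der-2 had signals of 26.7 to 37.1 and no peak, while rnf-121, described above, had one. The genes vms-1 and ddi-1 had no region at all in the list made between replicates, and png-1 had only a signal of 15.9. In the list of replicate 1 the count was 7 of 26 (7.44% of all genes) and in that of replicate 2 it was 5 of 26 (6.99%).

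**Figure D3:**
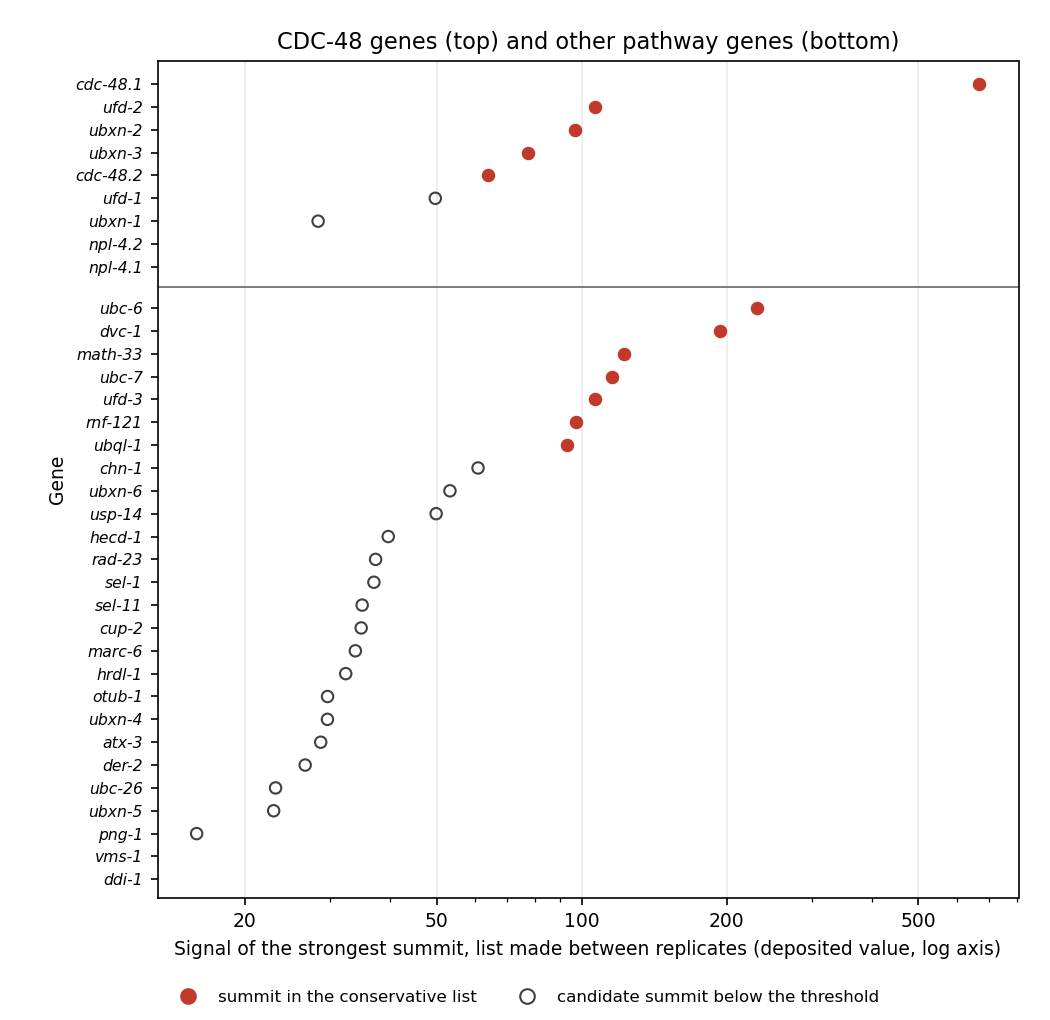
Deposited signal of the strongest summit in each gene's window, from the ranked list made between replicates (log axis), for the 9 CDC-48 genes above the line and 26 other pathway genes below it; filled points are in the conservative list, open points are candidate regions and a name with no point had no region. cdc-48.1 stands at 669, the highest value of both lists, and the next is ubc-6 at 232.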

How the data were processed

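RCOR-1::eGFP ChIP-seq peak lists of 2 biological replicates (1 group, fragments of 200 to 800 bp per the labels) were used. Per the deposited file notes, reads were aligned to ce11 and regions ranked by IDR. Aligner, peak caller and treatment of the control were not given in the sources used here. For each region, the authors deposited a signal on an unstated scale, a summit offset in bp and the −log10 of the IDR. Read depth is unknown, so no interval is attached to a signal. The lists were used as deposited. The ranked lists also hold 8 columns of signals of their input lists, which were not used, and replicate values came from each replicate's own ranked list, by the nearest overlapping region (at least 1 bp).

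Gene models were Ensembl release 115 and the sequence RefSeq WBcel235, whose chromosome lengths cover all regions. Members were the 9 genes named at the start, with summits read from 1000 bp upstream to the gene end, and the counts stand beside all nuclear protein-coding genes. Percentiles are among all regions of the same list. Words were searched within 100 bp either side of summits. Words of 31 bases found more than once in the genome, on either strand, were called repeated. The repeat measures were chosen after the absence of regions at the NPL-4 genes was seen. Members, gene lists and words were chosen with earlier results of these data known, so no tests were made. Genes named besides members were those within 1000 bp of a member summit and snoRNA genes within 5000 bp of a window. Pathway genes with a peak (at most 8) and the 3 peaks nearest in replicate signal were also named under this rule. Those 3 were taken from peaks within 500 bp of a protein-coding transcript start. Flanking genes of members and pathway genes without a peak were named outside this rule, after the values were seen. The summit search was tested on planted summits. Python 3.11.15, pandas 2.3.3, numpy 2.4.6 and Biopython 1.88 were used.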

Additional observations from a re-analysis of the deposited data

How the results depend on the processing

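No paired analysis was possible because there was 1 group. The members' count of 5 genes moved to 3 with peaks above the median signal, and ranged from 1 to 3 in the lists of single replicates, which hold fewer peaks. It was 4 or 5 with the other list and windows. All these counts of members include cdc-48.1, for whose peak the genes were picked. The pathway count of 7 ranged from 5 to 7 in single replicates and was 6 to 8 otherwise. The median percentile of the 5 peaks among candidate regions was 97.6 between replicates, and 95.5 to 97.4 in the replicates. Their median position was -192 bp, and -196 to -164 bp in the replicates. The cdc-48.1 summit held 2 of the 9 words within 100 bp on either side and also within 200 bp. In the wider window TATAAA matched at 2 places there. Of the other summits, that of cdc-48.2 gained GAGAGA and that of ubxn-3 gained CTGCGTCT. Depth is unknown, and a control experiment named in the labels was not analysed here.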
